A study of Mus musculus with 12 samples.

Results

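The 10 genes Arl5c, Acap1, Cytip, Spn, Stxbp5, Tmem176b, Ptpn14, Neurl3, Niban2 and Capn2 were chosen by their clear differences between WT and ACAT1 KO macrophages, outside the interferon-stimulated genes, and were followed across 4 groups. They are 10 of the 16699 genes listed both for unstimulated cells and after lipopolysaccharide (LPS). Because measured differences between the genotypes chose them, those differences are given as a description without a test. Only the response to LPS, averaged over the genotypes, was tested. The choice set no numerical threshold.

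RNA was sequenced from J774A.1 cells, a mouse macrophage line. WT cells had received the vector pSpCas9-2A-GFP without a guide, and ACAT1 KO cells the same vector with a guide to exon 4 of Acat1, which encodes a mitochondrial acetyl-CoA acetyltransferase. Cells of both genotypes were sorted on GFP and grown as clonal populations, and each of the 4 groups held 3 libraries, numbered 1 to 3, from 3 lines per genotype. The labels do not state that a number marks the same line in both states. Wherever lines are numbered or paired below, that is inferred. The groups were WT unstimulated, ACAT1 KO unstimulated, WT after LPS and ACAT1 KO after LPS at 100 ng/ml for 2 h. A difference between clonal lines that has nothing to do with Acat1 cannot be told apart from a difference of genotype.

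Several of these genes belong to the machinery that moves membranes and anchors the leukocyte surface. ARF GTPases recruit coats to vesicles when bound to GTP, exchange factors such as the cytohesins load them, and GTPase-activating proteins switch them off. SNARE proteins then fuse vesicles with their target membrane, sialomucins coat the leukocyte surface and set how closely cells touch, and calpains cut proteins that link integrins to the cytoskeleton. LPS is sensed by TLR4 and within hours resets the transcription of much of the macrophage genome, mainly through NF-kB, AP-1 and interferon regulatory factors.

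Totals ran from 56948593 to 167280149 counts per library. Levels are in CPM, a gene's counts scaled to the normalized library total. The targeted gene, Acat1, reached 98.8 ± 15.6 in unstimulated WT and 26.8 ± 1.82 in unstimulated KO cells (mean CPM ± SD, n = 3), then 81.9 ± 15.5 and 19.1 ± 0.732 following LPS, and the genotypes never overlapped. All 10 macrophage markers looked up were listed, and their summed level was higher in ACAT1 KO cells, at 10250 to 11650 against 9004 to 9963 CPM without stimulation and 9252 to 10692 against 8867 to 9238 CPM after LPS. Of them Fcgr1 was lower in ACAT1 KO cells, at a mean of 75.0 against 121 and then 53.6 against 114 CPM, and so was unstimulated Adgre1 (42.7 against 74.0 CPM). Most of the macrophage sum was Lyz2, at a mean of 6883 in ACAT1 KO against 6117 CPM in WT cells and then 5431 against 5146 CPM. The T cell list, led by Lck with Cd247 second, summed to 6.53 to 8.19 in WT and 5.56 to 6.62 CPM in ACAT1 KO cells without stimulation, and to 12.6 to 13.03 and 13.8 to 14.9 CPM after LPS, while Cd3e, Cd3d, Cd3g, Cd8a and Trac were not listed. The B cell list, almost entirely Blnk, was lower in ACAT1 KO cells, at 27.6 to 33.4 against 34.1 to 34.9 CPM and then 41.0 to 44.3 against 48.0 to 61.0 CPM. Neutrophil markers summed to 2.63 to 5.14 CPM and overlapped between genotypes in both states. The dendritic cell list summed to 4.75 to 13.4 CPM in WT and 15.5 to 22.9 CPM in ACAT1 KO cells without stimulation and to 5.01 to 11.7 and 11.8 to 18.3 CPM after LPS, through Cd209a, while Flt3, Clec9a and Siglech were not listed. The list of fibroblast and epithelial markers summed to 5.63 to 6.61 CPM in WT and 11.5 to 13.2 CPM in ACAT1 KO cells after LPS, through Pdgfra. The part of these lists in the differences of the 10 genes was not tested.

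All 10 genes passed the filter on low counts. In unstimulated cells the genotypes were separated in CPM, with no library of either within the range of the other, for 10 of 10, a separation that 25.5% of all genes showed, and after LPS again for 10 of 10, against 36.9% of all genes. Arl5c, Ptpn14 and Spn were higher and the other 7 lower in ACAT1 KO cells, in both states. Since the genes were chosen on these gaps, nothing is read from those counts. The median log2 difference of the 10 was -0.52 without stimulation (median of all genes 0.0035) and -0.82 after LPS (median of all genes -0.0041).

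**Figure D1:**
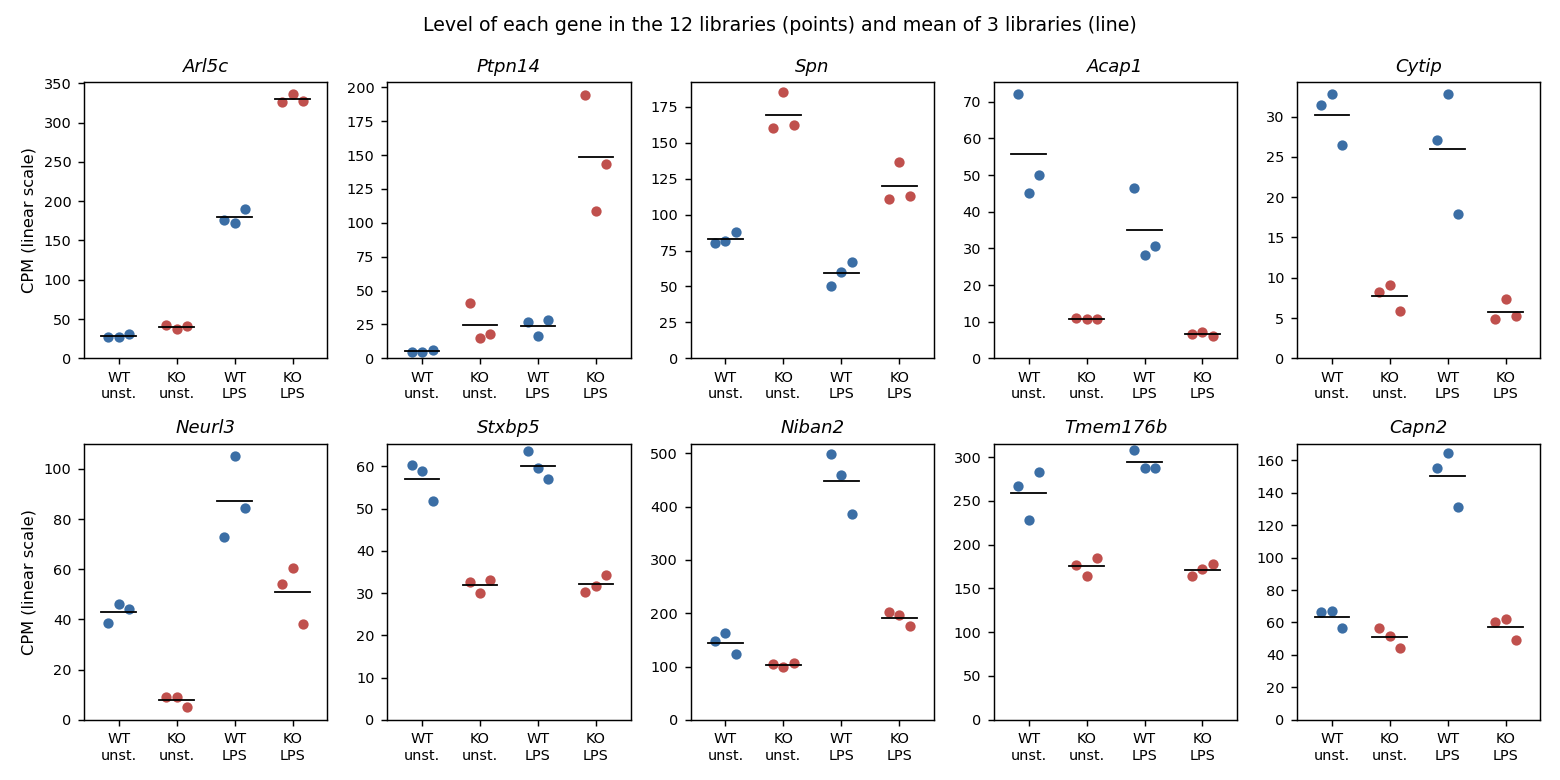
Level of each of the 10 genes in CPM on a linear axis from 0, with a point for each of the 12 libraries and a line at the mean of 3, WT in blue and ACAT1 KO in red. The genotypes do not overlap in either state for any gene, Arl5c reaches 327 to 336 CPM in ACAT1 KO cells after LPS, and Capn2 leaves its resting range in the WT libraries after LPS (131 to 164 CPM).

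Per kilobase of exon, the scale on which genes can be compared, Tmem176b stood highest in unstimulated WT cells (109 CPM per kb), in unstimulated ACAT1 KO cells (73.8 CPM per kb) and in WT cells after LPS (124 CPM per kb). In ACAT1 KO cells after LPS Arl5c was highest instead (159 CPM per kb). Ptpn14 was the lowest of the 10 in WT cells, at 0.397 CPM per kb without stimulation and 1.80 CPM per kb after LPS. Cytip was the lowest in ACAT1 KO cells, at 1.15 and 0.862 CPM per kb.

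After LPS, averaged over the genotypes, 7 of the 10 genes changed and 3 did not pass (edgeR's quasi-likelihood test, Benjamini-Hochberg adjusted over 16535 genes). Of all genes tested, 69.5% passed, 34% higher and 35.5% lower, so 7 of 10 is near the background. The 5 that rose were Arl5c, Ptpn14, Neurl3, Niban2 and Capn2, and the 2 that fell were Acap1 and Spn. With the line as a block, that is, pairing each LPS library with the unstimulated library of the same number, 8 passed, Cytip being added among those that fell. The median of the 10 was 0.39 and that of all genes -0.0156 on the log2 scale.

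Promoter sequence upstream of the start site was at hand for 8 of the 10 genes in RefSeq (GRCm38.p6), and not for Acap1 and Arl5c. Given here, 5′ to 3′ on the strand of the gene, are the 250 bases before the start of Ptpn14 (chr1:189728018-189728267, plus strand) and Capn2 (chr1:182517611-182517860, minus strand), which rose after LPS, and of Spn (chr7:127137824-127138073, minus strand), whose gap between genotypes changed least with LPS of the 10. For Neurl3 the 29 bases around an NF-kB core are shown (chr1:36273517-36273545, minus strand). Capitals mark a match to a motif searched.
Ptpn14: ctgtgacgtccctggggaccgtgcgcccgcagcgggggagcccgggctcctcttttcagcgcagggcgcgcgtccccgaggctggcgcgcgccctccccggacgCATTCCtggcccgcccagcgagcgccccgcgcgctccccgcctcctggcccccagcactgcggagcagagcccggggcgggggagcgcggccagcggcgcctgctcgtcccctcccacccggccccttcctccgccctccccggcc
Capn2: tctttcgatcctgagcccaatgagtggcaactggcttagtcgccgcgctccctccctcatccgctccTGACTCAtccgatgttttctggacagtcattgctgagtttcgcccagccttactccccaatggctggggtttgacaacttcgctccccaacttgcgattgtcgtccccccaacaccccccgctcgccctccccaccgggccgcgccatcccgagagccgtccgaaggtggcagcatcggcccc
Spn: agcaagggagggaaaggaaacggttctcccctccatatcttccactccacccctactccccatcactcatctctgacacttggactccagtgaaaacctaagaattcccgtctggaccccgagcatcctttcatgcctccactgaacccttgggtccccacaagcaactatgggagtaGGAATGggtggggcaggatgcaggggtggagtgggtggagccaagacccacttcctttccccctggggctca
Neurl3: gaggtcatggGGAAAGTCCcggatatcgt

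The capitals in Ptpn14 and Spn are the TEAD motif GGAATG, in Ptpn14 as its reverse complement. TEAD factors are the DNA-binding partners of YAP, the effector of the Hippo pathway. Yap1, which encodes YAP, was looked up and was not among the genes tested in any comparison. The TEAD motif was found upstream of 3 of the 8 genes (Ptpn14, Spn and, at 1 of its 3 starts, Tmem176b). Of 32851 promoters 12.6% held it, counted by start rather than by gene and with 1 chromosome left out. In Capn2 the capitals are the AP-1 motif TGANTCA at positions -183 to -177 from the start, which 6.75% of promoters hold. In Neurl3 they are the NF-kB core GGANNNTCC at -110 to -102 (7.27% of promoters), and the gene also has the TATA box TATAAA at -39 to -34 (12.4%). Cytip holds 2 matches to GAAANNGAA, the interferon-stimulated response element (7.13%). The RefSeq starts of Cytip and Neurl3 lie inside the GENCODE spans of these genes, so that 250 and 158 of the 250 bases fall in annotated exons. Annotated exons also cover 138 bases for Niban2, 39 for Stxbp5 and at least 242 for Tmem176b. PU.1 (GAGGAAGT, 2.44%) and CRE (TGACGTCA, 1.55%) matched none of the 8. Both strands were searched, no match overlapped another motif, and a match describes letters only. The number of CG dinucleotides in these 250 bases ran from 40 in Stxbp5 and 34 in Ptpn14 through 19 in Capn2, 13 in Niban2, 7 in Neurl3, 5 in Cytip and 3 in Spn to between 1 and 3 over the 3 starts of Tmem176b, against a median of 6 over the 32851 promoters.

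Arl5c, Acap1 and Cytip act in the ARF GTPase cycle. Arl5c (chr11:97989578-97996181, minus strand, GRCm38) encodes an ARF-like small GTPase. Without stimulation it was counted at 26.9, 27.7 and 31.5 CPM in WT libraries 1 to 3 and at 42.8, 37.1 and 41.4 CPM in the ACAT1 KO libraries. After LPS it reached 176, 173 and 190 CPM in WT and 327, 336 and 327 CPM in ACAT1 KO cells. The 4 groups stood apart in their order, ACAT1 KO after LPS highest and unstimulated WT lowest. The ACAT1 KO minus WT difference was 0.50 (SE 0.0865) on the log2 scale without stimulation and 0.90 (SE 0.0574) after LPS. Arl5c rose 7.14-fold with LPS over both genotypes, by 2.84 on the log2 scale (SE 0.0559, adjusted p = 3.73e-12, edgeR), higher in 6 of 6 lines, and ranked 272 of 16535 genes from the highest. Within the genotypes its response was 2.64 (SE 0.0786) in WT and 3.03 (SE 0.0795) in ACAT1 KO cells. Its relatives Arl5b and Arl5a rose as well, by 1.74 (SE 0.0530, adjusted p = 7.85e-11, edgeR) and 0.71 (SE 0.0482, adjusted p = 6.15e-08, edgeR).

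Acap1 (chr11:69881567-69895539, minus strand) encodes a GTPase-activating protein for ARF6 that works in recycling endosomes. Unstimulated WT libraries held 72.0, 45.0 and 50.1 CPM, and the ACAT1 KO libraries 11, 10.7 and 10.8 CPM. After LPS the values were 46.3, 28.1 and 30.7 CPM in WT and 6.70, 7.06 and 6.13 CPM in ACAT1 KO cells. The WT lines spread widely, line 1 highest in both states, whereas the ACAT1 KO lines lay close together. Acap1 was 5.12-fold lower in ACAT1 KO cells without stimulation (log2 -2.35, SE 0.176) and 5.20-fold lower after LPS (log2 -2.38, SE 0.184). It fell 1.61-fold with LPS, log2 -0.69 (SE 0.137, adjusted p = 7.23e-04, edgeR), in 6 of 6 lines, and by like amounts in WT (-0.67, SE 0.190) and ACAT1 KO cells (-0.71, SE 0.197). Acap2 and Acap3, its closest relatives, had genotype differences of -0.01 (adjusted p = 0.950, edgeR) and -0.02 (adjusted p = 0.896, edgeR) without stimulation and of -0.10 (adjusted p = 0.242, edgeR) and -0.41 (adjusted p = 0.0238, edgeR) after LPS.

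Cytip (chr2:58129137-58195532, minus strand) encodes a protein that binds cytohesin-1, an ARF exchange factor, and modulates integrin adhesion of leukocytes. Its WT levels were 31.4, 32.9 and 26.5 CPM without stimulation and 27.1, 32.8 and 17.9 CPM after LPS. In ACAT1 KO cells they were 8.22, 9.09 and 5.87 CPM and then 4.92, 7.32 and 5.20 CPM. The states overlapped within each genotype, and the genotypes lay far apart. The log2 difference between genotypes was -1.96 (SE 0.175) without stimulation and -2.13 (SE 0.235) after LPS. The LPS response of -0.31 (SE 0.160, 95% interval -0.67 to 0.04) did not pass (adjusted p = 0.0998, edgeR), although 6 of 6 lines were lower and line 2 of WT almost level. With the line as a block it was -0.33 and passed (adjusted p = 0.00901, edgeR). It also passed without ACAT1 KO unstimulated replicate 3, WT LPS replicate 2 or ACAT1 KO LPS replicate 2, the lowest adjusted p in 12 fits that each leave out a library being 0.0346 and the highest 0.203 (edgeR).

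The other genes of the ARF cycle looked up numbered 39 tested. Between genotypes 2 were higher and 0 lower in unstimulated ACAT1 KO cells, Arfgap2 (0.49, SE 0.0611, adjusted p = 0.0274, edgeR) and Arfgap1 (0.42, SE 0.0670, adjusted p = 0.0403, edgeR), both GTPase-activating proteins of ARF1 at the Golgi. Over all genes 1.91% passed there, and 15.1% after LPS. After LPS 3 were higher, among them Arfgap2 (0.46, SE 0.0497, adjusted p = 0.00277, edgeR), and 4 lower, among them Arf6, the substrate of Acap1 (-0.54, SE 0.0582, adjusted p = 0.00278, edgeR), and Asap2 (-0.74, SE 0.108, adjusted p = 0.00643, edgeR). The median of the list was -0.10 after LPS, beside -0.0041 for all genes. With LPS, 23 of the list rose and 10 fell, 84.6% of those tested beside 69.5% of all genes.

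Spn, Stxbp5 and Tmem176b are proteins of the surface and of vesicle traffic. Spn (chr7:127132232-127137823, minus strand) encodes CD43, a sialomucin of leukocytes. Its CPM in libraries 1 to 3 were 80.4, 81.4 and 87.8 in unstimulated WT and 161, 185 and 163 in unstimulated ACAT1 KO cells. The values after LPS were 50.1, 60.0 and 67.0 in WT and 111, 136 and 113 in ACAT1 KO cells. All 4 groups stood apart, and both ACAT1 KO groups lay above both WT groups. Spn was 2.05-fold higher in ACAT1 KO cells without stimulation (log2 1.04, SE 0.0806) and 2.06-fold higher after LPS (log2 1.04, SE 0.119). It fell with LPS by 0.49 on the log2 scale (SE 0.0777, adjusted p = 1.11e-04, edgeR), in 6 of 6 lines.

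Stxbp5 (chr10:9755547-9901079, minus strand) encodes tomosyn, which binds syntaxin and SNAP25 and holds back SNARE assembly. WT libraries held 60.3, 59.0 and 51.7 CPM without stimulation and 63.7, 59.6 and 57.1 CPM after LPS. ACAT1 KO libraries held 32.6, 30.1 and 33.2 CPM and then 30.3, 31.7 and 34.2 CPM. The states overlapped within each genotype. The genotype difference was -0.83 (SE 0.0772) without stimulation and -0.88 (SE 0.0707) after LPS. Its response to LPS was 0.04 (SE 0.0532, 95% interval -0.07 to 0.16, adjusted p = 0.501, edgeR), higher in 5 of 6 lines, and turned to -0.14 with upper-quartile normalization (adjusted p = 0.0372, edgeR), which moved the median of all genes from -0.0156 to -0.195. Relative to that median it was 0.06 under both normalizations.

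Tmem176b (chr6:48833818-48841496, minus strand) encodes a membrane protein of myeloid cells with 4 transmembrane segments, and its start lies beside that of its partner Tmem176a on the other strand. It was counted at 266, 228 and 283 CPM in unstimulated WT and 176, 165 and 184 CPM in unstimulated ACAT1 KO cells. After LPS it stood at 308, 287 and 288 CPM in WT and 165, 172 and 178 CPM in ACAT1 KO cells. Only the ACAT1 KO groups overlapped between states, of the 4 groups in order of level. The genotype difference was -0.56 (SE 0.0945) without stimulation and -0.76 (SE 0.0577) after LPS. Its LPS response of 0.08 (SE 0.0559, 95% interval -0.05 to 0.20) did not pass (adjusted p = 0.243, edgeR), with 4 of 6 lines higher, and took the other sign, -0.10, with upper-quartile normalization, while relative to the median of all genes it was 0.09 under both normalizations. Tmem176a was at 94.2, 81.8 and 105 CPM in unstimulated WT against 68.0, 66.5 and 75.0 CPM in ACAT1 KO cells, a log2 difference of -0.42 (SE 0.102) that did not pass (adjusted p = 0.0941, edgeR). After LPS it was lower in ACAT1 KO cells by -0.45 (SE 0.0683, adjusted p = 0.00696, edgeR), and its own LPS response was -0.03 (adjusted p = 0.717, edgeR). Tmem176a and Tmem176b overlap in their exons on opposite strands, and the sources used here do not state whether counting used the strand, so their counts may share reads.

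Of 32 other SNARE genes tested 0 passed between genotypes in unstimulated cells in edgeR, with 11 under an unadjusted p of 0.05 and 6 called by DESeq2. After LPS 3 of 33 were higher in ACAT1 KO cells, namely Snap23 (0.57, SE 0.0866, adjusted p = 0.00710, edgeR), which pairs with plasma membrane syntaxins, Syt11 (0.45) and Vamp2 (0.26), and 1 lower, Stxbp3 (-0.34, SE 0.0647, adjusted p = 0.0147, edgeR). Between genotypes after LPS 12.1% of the SNARE list passed, beside 15.1% of all genes. With LPS 13 rose and 14 fell, 81.8% of those tested beside 69.5% of all genes. The rise of Stx11 (4.96, SE 0.0857, adjusted p = 1.52e-12, edgeR) led them. Among genes of sialomucins, ERM proteins and leukocyte contact, Slc9a3r1, an ERM-binding scaffold, was lower in ACAT1 KO cells without stimulation (-0.63, SE 0.0683, adjusted p = 0.0190, edgeR) and after LPS (-0.78, SE 0.0902, adjusted p = 0.00312, edgeR). So was Gcnt1, which branches the O-glycans carried by CD43 (-1.03, SE 0.155, adjusted p = 0.0390, and -1.0, SE 0.221, adjusted p = 0.0237, edgeR). These were the 2 of 22 that passed without stimulation, 9.09% beside 1.91% of all genes. After LPS 2 of 21 were higher and 4 lower, 28.6% beside 15.1% of all genes.

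Ptpn14, Neurl3, Niban2 and Capn2 are enzymes and adaptors of signalling and adhesion, and all 4 rose with LPS. Ptpn14 (chr1:189728268-189876695, plus strand) encodes a tyrosine phosphatase with a FERM domain that binds YAP. It was scarce in unstimulated WT cells, at 4.97, 4.72 and 6.30 CPM, and stood at 40.6, 15.3 and 18.1 CPM in unstimulated ACAT1 KO cells. After LPS it reached 27.1, 16.6 and 28.6 CPM in WT and 194, 109 and 143 CPM in ACAT1 KO cells. The ACAT1 KO lines spread widely, line 1 highest in both states, and the range of unstimulated ACAT1 KO libraries overlapped that of WT libraries after LPS. The gap was 4.64-fold without stimulation (log2 2.21, SE 0.377), or 1.64 on the log2 scale without ACAT1 KO unstimulated replicate 1, and 6.25-fold after LPS (log2 2.64, SE 0.259). Ptpn14 rose 5.20-fold with LPS (log2 2.38, SE 0.257, adjusted p = 4.16e-06, edgeR), in 6 of 6 lines and to rank 394 of 16535. Its upstream window held the most CG of the 3 printed whole.

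Neurl3 (chr1:36264597-36274679, minus strand) encodes an E3 ubiquitin ligase of the neuralized family. Without stimulation WT libraries held 38.7, 46.2 and 44.1 CPM and ACAT1 KO libraries 8.93, 9.27 and 5.22 CPM. After LPS these became 72.8, 105 and 84.3 CPM and 54.2, 60.5 and 38.3 CPM. ACAT1 KO cells after LPS overlapped unstimulated WT cells. The genotype difference was -2.45 (SE 0.221) without stimulation and -0.76 (SE 0.179) after LPS, 5.48-fold and 1.69-fold lower. Neurl3 rose 3.64-fold over both genotypes (log2 1.87, SE 0.158, adjusted p = 4.66e-07, edgeR), by 1.02 (SE 0.217) in WT and 2.71 (SE 0.232) in ACAT1 KO cells. The gap after LPS minus the gap before it was 1.69 (SE 0.309), which was not tested, since the genes were chosen on these gaps.

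Capn2 (chr1:182467260-182517608, minus strand) encodes the catalytic subunit of m-calpain, a calcium-dependent protease. The unstimulated levels were close, 66.3, 66.9 and 56.8 CPM in WT and 56.6, 51.8 and 44.0 CPM in ACAT1 KO cells. After LPS they were 155, 164 and 131 CPM in WT and 60.6, 62.4 and 48.9 CPM in ACAT1 KO cells. The WT libraries after LPS stood apart from every other library, and the neighbouring groups in the order below them overlapped, unstimulated WT with ACAT1 KO after LPS and the latter with unstimulated ACAT1 KO. Without stimulation the genotypes nearly touched, WT replicate 3 at 56.8 and ACAT1 KO replicate 1 at 56.6 CPM. The genotype difference was -0.31 (SE 0.109) without stimulation and -1.37 (SE 0.111) after LPS. Averaged over the genotypes Capn2 rose by 0.71 (SE 0.0866, adjusted p = 1.26e-05, edgeR) in 6 of 6 lines, an average of 1.25 (SE 0.124) in WT and 0.17 (SE 0.122) in ACAT1 KO cells. Capns1, its regulatory subunit, had a genotype difference of 0.06 (adjusted p = 0.771, edgeR) and then -0.01 (adjusted p = 0.900, edgeR), and Cast, the calpain inhibitor, 0.20 (adjusted p = 0.299, edgeR) and 0.01 (adjusted p = 0.960, edgeR).

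Niban2 (chr2:32876114-32925254, plus strand, Fam129b in the annotation) encodes a protein with a pleckstrin homology domain found at cell junctions. Its CPM in libraries 1 to 3 were 148, 163 and 123 in unstimulated WT and 104, 98.4 and 107 in unstimulated ACAT1 KO cells. The values after LPS were 498, 459 and 386 in WT and 202, 196 and 176 in ACAT1 KO cells. All 4 groups stood apart, and both LPS groups lay above both unstimulated groups. The genotype difference was -0.48 (SE 0.104) without stimulation and -1.20 (SE 0.0978) after LPS. Niban2 rose 2.40-fold (log2 1.26, SE 0.0798, adjusted p = 3.29e-08, edgeR), by 1.63 (SE 0.114) in WT and 0.89 (SE 0.112) in ACAT1 KO cells. Its family member Niban1 rose by 1.23 (SE 0.0671, adjusted p = 8.67e-09, edgeR).

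**Figure D2:**
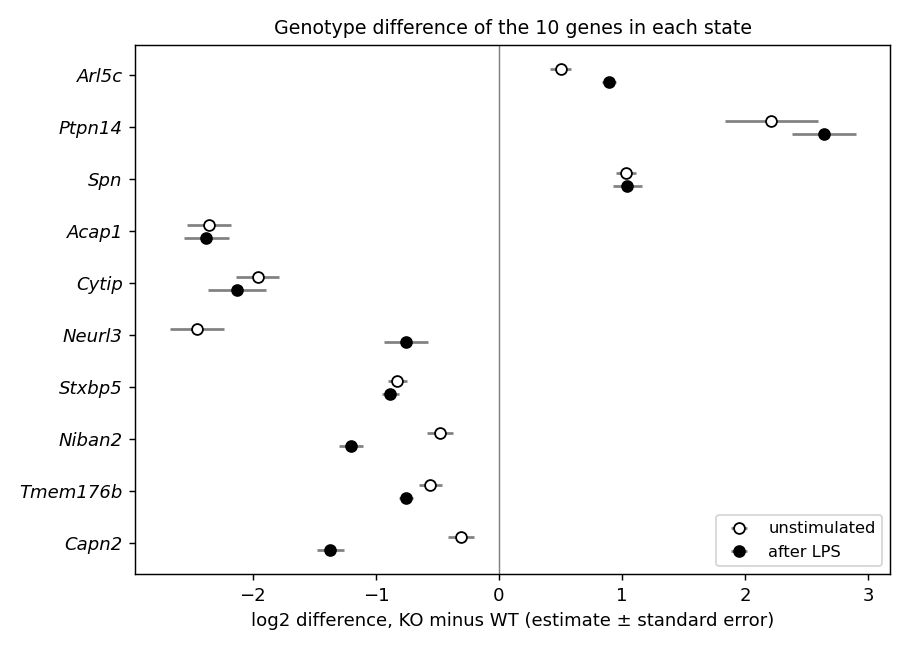
ACAT1 KO minus WT difference of each gene on the log2 scale with its standard error, without stimulation (open) and after LPS (filled), 3 against 3 libraries in each state. Acap1, Cytip, Spn and Stxbp5 sit at nearly the same place in both states, Neurl3 moves from -2.45 to -0.76, and Capn2 and Niban2 move away from 0.

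**Figure D3:**
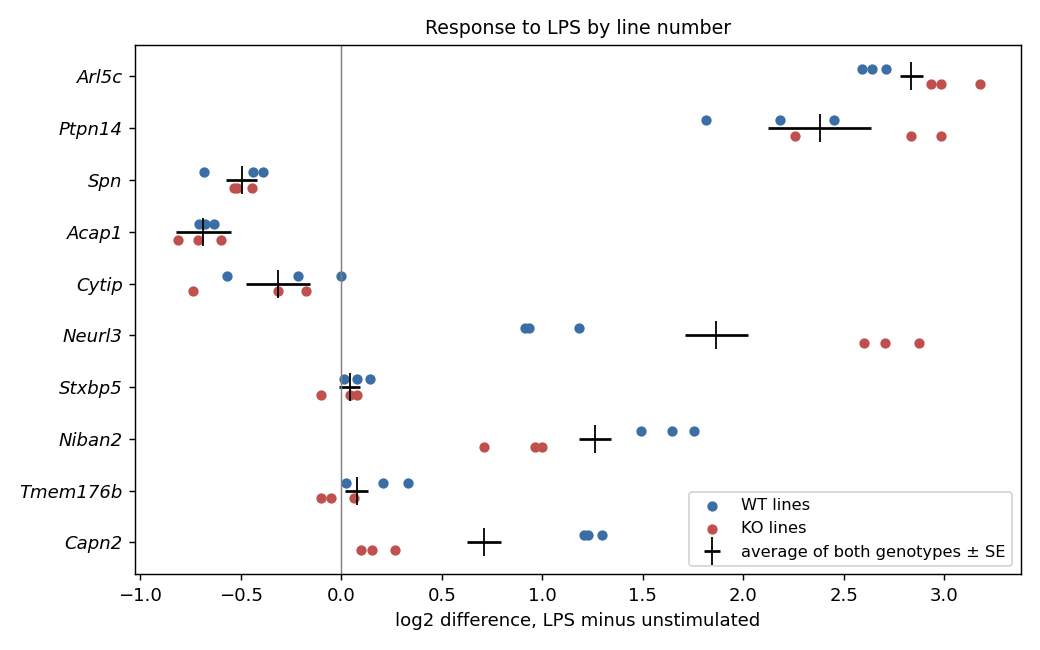
Difference between the LPS and the unstimulated library of the same number on the log2 scale, a point per line, with WT in blue, ACAT1 KO in red and the average of both genotypes with its standard error in black. WT and ACAT1 KO lines part for Neurl3, Niban2, Capn2 and Arl5c, and lie together for Acap1 and Spn.

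The gap after LPS minus the gap before it is given for each gene as a description on the log2 scale. It was 1.69 (SE 0.309) for Neurl3 and 0.39 (SE 0.105) for Arl5c, whose LPS response was larger in ACAT1 KO cells. It was -1.07 (SE 0.173) for Capn2 and -0.74 (SE 0.157) for Niban2, whose response was larger in WT cells. For Tmem176b it was -0.21 (SE 0.112), for Ptpn14 0.42 (SE 0.493) and for Stxbp5 -0.07 (SE 0.106). For Cytip it was -0.18 (SE 0.321), for Acap1 -0.04 (SE 0.272) and for Spn -0.0026 (SE 0.155). With the line as a block these became -0.22 (SE 0.0940), 0.53 (SE 0.213), -0.07 (SE 0.0751), -0.15 (SE 0.180), -0.03 (SE 0.0800) and 0.0023 (SE 0.0886). None of these changes was tested.

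Hippo pathway genes, the setting of Ptpn14, had 0 of 23 that passed between genotypes without stimulation in edgeR, with 4 under an unadjusted p of 0.05 and 2 called by DESeq2. After LPS 2 were higher and 7 lower in ACAT1 KO cells, 39.1% of those tested beside 15.1% of all genes, with a median of -0.19. Vgll4, a competitor of YAP for TEAD, was at -0.98 (SE 0.129, adjusted p = 0.00463, edgeR), and Ptpn21, the closest relative of Ptpn14, at -0.65 (SE 0.103, adjusted p = 0.00799, edgeR). Wwc1, the scaffold KIBRA, was at -1.97 (SE 0.468, adjusted p = 0.0289, edgeR). Its means after LPS were only 0.680 CPM (SD 0.437) in WT and 0.168 CPM (SD 0.0360) in ACAT1 KO cells. The kinase Stk4 was higher (0.50, SE 0.0678, adjusted p = 0.00523, edgeR). With LPS 11 of the pathway rose, among them Mob1b (1.81), Sav1 (1.44) and Lats1 (1.34), and 6 fell. These were 73.9% of those tested, beside 69.5% of all genes. In the calpain system 0 of 11 passed without stimulation in edgeR (2 under an unadjusted p of 0.05, 1 called by DESeq2) and 1 after LPS, the integrin-binding substrate Tln1 (-0.38, SE 0.0614, adjusted p = 0.00816, edgeR). Of 7 family members of Neurl3, Niban2 and Tmem176b, Neurl1a was lower in both states (-1.66, SE 0.251, adjusted p = 0.0390, and -1.96, SE 0.375, adjusted p = 0.0147, edgeR), at means of only 0.219 CPM in WT and 0.0548 CPM in ACAT1 KO cells after LPS, and Tmem176a after LPS alone passed besides. Over all lists 5 of 134 passed without stimulation (3.73%) and 29 of 134 after LPS (21.6%), beside 1.91% and 15.1% of all genes. The lists were chosen with earlier results of these data known, so the shares of each list are a description only.

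The neighbours of the 10 genes on their chromosomes were looked up for a shared difference. Within 500 kb of their start sites 206 other genes were tested in unstimulated cells, of which 0 passed in edgeR (28 under an unadjusted p of 0.05, 11 called by DESeq2), and 204 after LPS, of which 20 passed (9.8%, beside 15.1% of all genes), 11 of them in the direction of the member. Distances are between start sites, negative ones upstream. Around Capn2, Tlr5, the flagellin receptor, at -437 kb (-0.94, SE 0.173, adjusted p = 0.0128, edgeR) and Trp53bp2 at 108 kb (-0.40, SE 0.0719, adjusted p = 0.0119, edgeR) were both lower after LPS. Around Spn, Sephs2, a selenophosphate synthetase, at -136 kb was higher after LPS (0.62, SE 0.0726, adjusted p = 0.00324, edgeR). Arl5c, itself higher, had 5 neighbours that passed after LPS, 1 in its direction. Among the others Plxdc1 at 9.7 kb was lower (-0.57, SE 0.0656, adjusted p = 0.00312, edgeR). Acap1 had 50 neighbours after LPS, 5 of which passed, 1 in its direction, while 0 of 5 neighbours of Ptpn14 passed in edgeR, under an unadjusted p of 0.05 or in DESeq2. None of the 10 genes lies on chromosome 12 or on chromosome 2 beyond 90 Mb. That describes position only, and no cause of the differences was tested.

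**Figure D4:**
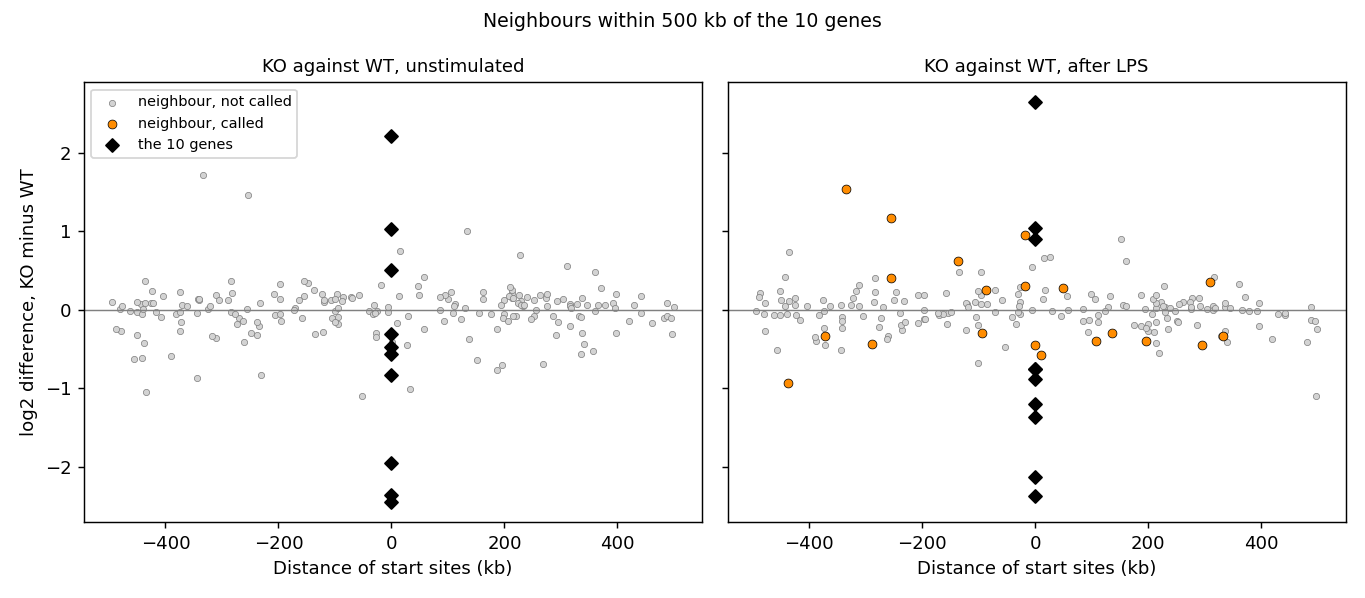
ACAT1 KO minus WT difference on the log2 scale of genes within 500 kb of the 10 genes against the distance of their start sites in kb, left without stimulation and right after LPS, with genes past an adjusted p of 0.05 in orange and the 10 genes as black diamonds at 0. No neighbour is orange on the left, 20 are on the right, and the medians of all neighbours are 0.02 and 0.00.

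Antisense genes overlap the exons of 4 of the 10. Beside Capn2, Gm37885 was at 1.14 CPM in WT and 0.564 CPM in ACAT1 KO cells without stimulation. Beside Niban2, Lrsam1 was at 10.0 and 9.94 CPM without stimulation and 4.89 and 4.37 CPM after LPS, far under Niban2 itself. Gm26574, beside Ptpn14, was not listed. The unstimulated libraries WT 1, WT 2 and ACAT1 KO 2 had 0.561%, 0.652% and 0.627% of all counts assigned to noncoding genes within opposite-strand exons, against 0.362% to 0.440% in the other 9, and had the 3 lowest totals. Within these 3 and within the other 3 unstimulated libraries, the log2 gaps were 1.66 and 2.22 for Ptpn14, -2.20 and -2.64 for Neurl3, -0.66 and -0.23 for Niban2, -0.99 and -0.65 for Stxbp5, 1.20 and 0.88 for Spn, -2.45 and -2.20 for Acap1 and -0.36 and -0.17 for Capn2. For Cytip, Tmem176b and Arl5c they were -1.82 and -1.91, -0.59 and -0.65, and 0.44 and 0.42. Since no gene overlapped between genotypes, the directions could not differ, and with 1 library of a genotype on a side these are values without an error.

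The gene whose log2 CPM followed each member most closely over the 12 libraries, among 11961 genes, is given as a description, the 12 libraries sharing genotype and treatment. Cytip ran with Acat1 itself (r = 0.980), Acap1 with Lgmn (0.988), Spn with Ndrg3 (0.979) and Stxbp5 with Col27a1 (0.977). Arl5c ran with Fam219a (0.996), Niban2 with Riox1 (0.997), Capn2 with Arf6 (0.975), Ptpn14 with Ptpn1 (0.971), Neurl3 with Ahr (0.968) and Tmem176b with Eapp (0.966). Among the 10 genes, deviations of the libraries from their group means correlated from -0.62 (Stxbp5 with Spn) to 0.79 (Capn2 with Cytip) over 45 pairs.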

How the data were processed

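Libraries were made with a directional kit. The authors used Trimmomatic 0.33 for trimming, HISAT2 for alignment (GRCm38) and StringTie for quantification. They deposited whole-number counts per gene, not normalized, in a table for each state. The step that made whole counts, and its use of strand, are not given in the sources used here. The tables list genes with at least 4 counts in at least 5 of 6 libraries. Their 12 columns of log2 values per library and the authors' log2 fold changes, moderated scores, p-values and adjusted p-values were not used.

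Of 17544 and 17874 genes, 16699 were in both tables and 17521 and 17849 matched GENCODE M21. Counts were filtered by filterByExpr, normalized by TMM and tested two-sided by edgeR 4.0.16 (R 4.3.3) with Benjamini-Hochberg adjustment at 0.05, WT against ACAT1 KO within a state (16440 and 16483 genes) and, over all 12 libraries, the LPS response averaged over the genotypes (16535 genes). CPM come from the fit of 12 libraries. The common biological coefficient of variation was 0.285 without stimulation, 0.108 after LPS and 0.185 over all. Over all genes, replicates differed by more than sampling noise (chi-square per degree of freedom 34.1 to 287), so none was counted as a copy of another. P-values between genotypes measure the spread between these lines. Those of the LPS response, unless a block is named, measure the spread of libraries within the 4 groups, without pairing by line. For genes well under 1 CPM counting error also limits precision. Tests were tried on counts simulated independently for each library, with the common coefficient of variation of each fit. Those counts held no pairing of lines and no batch, so they cannot show how the tests behave with either.

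The 10 genes, the related gene lists and the motifs were chosen with earlier results of these data known. Named are the 10, at most 5 genes of a list with the smallest p that passed, close relatives and partners looked up whatever their value (chosen after the values were seen, except Tmem176a), at most 2 neighbours within 500 kb, and the most alike gene by Pearson's r with a mean of at least 1 CPM. Log2 CPM used a prior count of 2.

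Line numbers pair unstimulated with LPS libraries by inference. Within a genotype, deviations of same-numbered libraries from their group means correlated from 0.139 to 0.454 over 11961 genes, those of other numbers from -0.344 to 0.0976. Same-numbered WT and ACAT1 KO libraries, which are different lines, correlated at -0.412, 0.745 and 0.745 without stimulation (numbers 1 to 3). After LPS these values were 0.126, 0.173 and -0.108. Whether the number also follows something other than the line was not tested. Alternatives were DESeq2 1.42.0, limma-voom (limma 3.58.1), RLE and upper-quartile normalization, no filter, at least 10 counts in every library, the replicate block and each library left out, and, added after seeing the data, a term for, or removal of, the 3 libraries rich in opposite-strand counts.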

Additional observations from a re-analysis of the deposited data

How the results depend on the processing

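In unstimulated cells 314 genes passed between genotypes (122 higher, 192 lower). DESeq2 gave 1721, at least 10 counts in every library 475, the replicate block 151 and the term for other-strand counts 664. Within a state the replicate block pairs WT and ACAT1 KO libraries of the same number, which come from different lines. Leaving out a library gave 7 (WT replicate 2) to 522 (WT replicate 3), with 10 without ACAT1 KO replicate 3, 17 without WT replicate 1, 24 without ACAT1 KO replicate 1 and 34 without ACAT1 KO replicate 2. Related genes that passed there, 5, became 25, 8, 3 and 10 under the same settings and 0 to 9 without a library. After LPS 2481 genes passed (977 higher, 1504 lower), and 867 (without ACAT1 KO replicate 2), 1020 (replicate 1), 1034 (replicate 3) and 1183 (without WT replicate 2) to 2245 without a library. Upper-quartile normalization made the LPS split 4325 higher and 7657 lower in place of 5620 and 5871. The related genes, 29, became 12 to 30 without a library. The cause of these moves was not tested.

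Of 140 unstimulated genotype differences of the 10 genes recomputed, 139 moved by less than the spread between replicates. Of 130 after LPS all did. The genes were chosen on these differences and the settings share most of the data, so this lends the differences no support. Of 210 LPS responses, 201 kept direction and side of the threshold, 5 of Cytip passed, the replicate block among them, and 4 took the other sign: Stxbp5 (-0.14) and Tmem176b (-0.10) with upper-quartile normalization, which shifted all genes alike and left both unchanged relative to the median of all genes (0.06 and 0.09), and Tmem176b with the other-strand term (-0.0032) or without those 3 libraries (-0.017). The replicate block changed no other call of a response of the 10 genes. The 3 lines per genotype limit precision.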
